A study of Mus musculus with 9 samples.

Results

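The transcriptome described here is that of 3 mouse medulloblastomas with intact Cdk6 (genotype Cdk6+/+), taken by their genotype label from the 9 tumours of the series. All 3 tumours came from C57BL/6J mice that carried the Cre transgene B6.Cg-Tg(Atoh1-cre)1Bfri/J and the targeted allele GT(ROSA)26Sortm1(Smo/EYFP)Amc/J. The allele encodes SmoM2, a constitutively active form of the Hedgehog transducer Smoothened tagged with a fluorescent protein, and Cre from the Atoh1 (Math1) driver switches it on in granule neuron progenitors. Each tumour was removed whole and frozen, and its total RNA was sequenced as 50-base single-end reads. The labels give no age or sex and do not say whether the samples came from separate mice, so the spread given below is the spread between samples. The 3 tumours are one group without a contrast, and an exact sign-flip test of 3 paired values could not go below p = 0.25, so levels, ranks and spread are described and nothing was tested.

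Hedgehog medulloblastoma arises from the granule neuron progenitors of the cerebellum, which divide in the outer granule layer after birth while Purkinje cells supply Sonic hedgehog. The ligand relieves the inhibition of Smoothened by Patched, the Gli transcription factors are activated, and genes such as Gli1, Ptch1, Mycn and the D-type cyclins are transcribed. With a constitutively active Smoothened the pathway no longer needs ligand, and the progenitors keep dividing in place of becoming granule neurons.

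The counts summed to 56837204, 39426972 and 39661273 in tumours 1, 2 and 3. A total of 3 counts corresponded to 0.0536, 0.0729 and 0.0776 counts per 1000000 counts (CPM), the limit that a gene without a count allows for counting error only. Genes of mitochondrial DNA took 3.0%, 2.57% and 3.92% of the counts, and nuclear protein-coding genes took 95.2%, 95.5% and 94.3%. The 3 libraries were distinct, with a chi-square of at least 31.2 per degree of freedom between any pair. Spearman's rho of the CPM across 14614 genes lay between 0.985 and 0.990, a description across genes, which are not replicates.

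In the 3 tumours a small set of translation genes stood far above a broad middle range. Levels were taken as CPM divided by the gene's exon length in kb, a scale on which genes can be compared with one another, and a gene was counted as detected at a mean of at least 1 CPM per kb. Of 47593 genes, 13237 were detected (27.8%), and of 21720 protein-coding genes 11840 were detected (54.5%). The detected protein-coding genes had a median level of 8.77 CPM per kb. Of the protein-coding genes 5401 reached 10 CPM per kb, 421 reached 100 CPM per kb and 21 reached 1000 CPM per kb. No count in any tumour was recorded for 20508 genes.

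Ribosomal protein genes made up 12 of the 20 highest nuclear protein-coding genes and 48 of the 100 highest. The highest nuclear gene was Eef1a1, the elongation factor that delivers aminoacyl-tRNA to the ribosome, at 4379.7, 3156 and 4629 CPM per kb in tumours 1, 2 and 3. Tumour 2 was lowest for Eef1a1, and 40.4% of the gene's 50-base sequences occur in another annotated gene, so its reads may be split with close copies. Rps24, which encodes a protein of the small ribosomal subunit, was at 2001, 1259 and 2203 CPM per kb, again with tumour 2 lowest. Tmsb4x, which encodes the actin-sequestering peptide thymosin beta 4, stood at 1983, 1303 and 1743 CPM per kb. The chaperone gene Hsp90ab1 was close to equal in all 3, at 1163, 1064 and 1158 CPM per kb. Tuba1a, the alpha-tubulin of young neurons, was at 1169.8, 966 and 965 CPM per kb, with 75.5% of its 50-base sequences shared with other tubulin genes or pseudogenes. Others among the 20 highest were Rps25, Rpl4, Ptma, Rpl17, Rps12, Rps3a1, Rpl32, Rps4x, Calm2, Rps27, Rpl13a, Rps15, Cfl1 and Hnrnpa1. Above all nuclear genes stood 3 genes of the mitochondrial DNA, led by mt-Co1, a subunit of cytochrome c oxidase, at 6659, 5458 and 9140.2 CPM per kb. Of the 12 mitochondrial protein-coding genes at 1 CPM or more, 10 were highest in tumour 3 (35.2% of all protein-coding genes were), and none was highest in tumour 2.

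**Figure D1:**
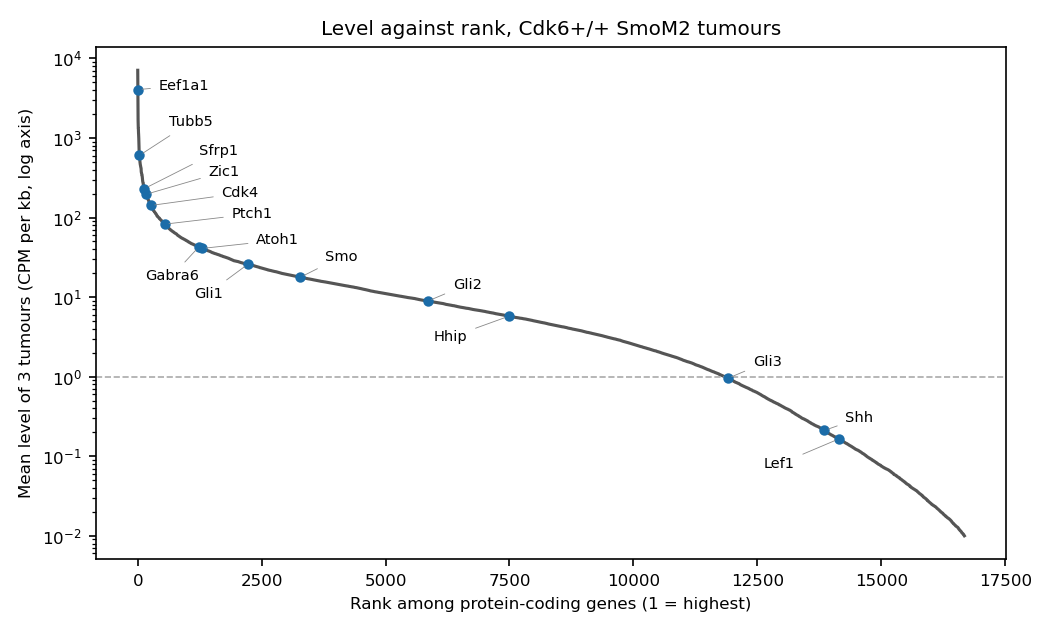
Mean level over the 3 Cdk6+/+ tumours (CPM per kb, log axis) against rank among protein-coding genes, with chosen genes marked and the detection level of 1 CPM per kb as a dashed line. Eef1a1 and Tubb5 lie at the steep left end, Ptch1, Atoh1, Gli1 and Smo lie in the upper shoulder, Gli3 lies at the detection level, and Shh and Lef1 lie below it.

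Promoters of the genes with high levels held more CpG dinucleotides than promoters of genes with low levels. RefSeq promoters, the 250 bases before the annotated start, were available for 16444 of the protein-coding genes. The median number of CpG (the letters CG) was 2 in promoters of genes under 0.1 CPM per kb, 7 between 0.1 and 1, 15 between 1 and 10, 18 between 10 and 100, and 17 at 100 CPM per kb or more. Over all 16444 promoters the median was 10. The letters TATAAA, searched on the gene's strand between 40 and 20 bases before the start, were present in 5.89%, 3.32%, 0.980%, 0.807% and 3.41% of the promoters of these level classes in the same order, and in 2.77% of all. These are matches of letters and not measured sites.

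The promoters shown here belong to genes of the tumour cells and of other cerebellar cells that the results below describe. They are 6 of 13 promoters read for such genes, and were chosen after their levels and CpG content were seen, to show promoters rich and poor in CG. Each sequence is the 200 bases before a RefSeq start, written 5′ to 3′ on the gene's strand (GRCm38.p6), with every CG in capitals. The promoter of Ptch1, the Hedgehog receptor, is at chr13:63565736-63565935 on the minus strand, at a start inside the deposited gene interval. That of Zic1, a zinc finger factor of granule neuron progenitors, is at chr9:91365769-91365968 on the minus strand, and that of Atoh1, the proneural factor that defines these progenitors, is at chr6:64728925-64729124 on the plus strand. Gabra6 encodes a GABA receptor subunit of mature granule neurons and has its promoter at chr11:42321073-42321272 on the minus strand. Mobp encodes a myelin protein of oligodendrocytes and has its promoter at chr9:120149542-120149741 on the plus strand, and Pvalb encodes a calcium buffer of Purkinje cells and interneurons, with its promoter at chr15:78206401-78206600 on the minus strand.
Ptch1: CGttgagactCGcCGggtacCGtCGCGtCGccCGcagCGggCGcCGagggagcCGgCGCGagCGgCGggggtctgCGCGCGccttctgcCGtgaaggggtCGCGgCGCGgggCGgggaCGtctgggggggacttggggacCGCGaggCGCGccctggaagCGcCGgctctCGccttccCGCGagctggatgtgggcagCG
Zic1: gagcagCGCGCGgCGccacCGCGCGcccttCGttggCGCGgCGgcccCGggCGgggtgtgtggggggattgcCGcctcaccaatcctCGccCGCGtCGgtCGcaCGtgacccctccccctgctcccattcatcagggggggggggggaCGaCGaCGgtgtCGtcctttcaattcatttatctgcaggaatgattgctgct
Atoh1: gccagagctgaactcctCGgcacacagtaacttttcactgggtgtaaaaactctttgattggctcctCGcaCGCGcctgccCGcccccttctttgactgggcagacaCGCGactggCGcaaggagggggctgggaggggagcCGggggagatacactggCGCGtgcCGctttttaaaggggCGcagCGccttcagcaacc
Gabra6: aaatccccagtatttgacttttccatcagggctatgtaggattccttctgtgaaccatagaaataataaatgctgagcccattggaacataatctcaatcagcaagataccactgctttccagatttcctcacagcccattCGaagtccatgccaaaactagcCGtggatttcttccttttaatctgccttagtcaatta
Mobp: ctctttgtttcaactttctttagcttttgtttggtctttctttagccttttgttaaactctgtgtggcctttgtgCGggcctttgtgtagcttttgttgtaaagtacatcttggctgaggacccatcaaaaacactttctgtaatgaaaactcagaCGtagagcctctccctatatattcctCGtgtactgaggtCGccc
Pvalb: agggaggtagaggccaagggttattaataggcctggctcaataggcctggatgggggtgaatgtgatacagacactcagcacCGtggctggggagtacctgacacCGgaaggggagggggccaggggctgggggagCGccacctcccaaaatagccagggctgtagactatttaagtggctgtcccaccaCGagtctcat

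In the 250 bases before the start, Ptch1 held 41 CG, Zic1 27 and Atoh1 14, whereas Gabra6 held 2, Mobp 4 and Pvalb 4. Of the promoters not shown, Cdk6 and Neurod1 held 22 each, Tmsb4x 15, Mycn 11, Barhl1 and Mal 7 each and Otx2 6. The progenitor factors Barhl1 and Otx2 thus held no more CG than the myelin gene Mal, so CG content did not separate the progenitor genes among these 13 from the genes of other cells. None of the 6 promoters held TATAAA in the searched window. The 443 genes whose highest tumour was at least 2 times the lowest had a median of 8 CG and TATAAA in 2.93% of their promoters. The 10002 genes at 1 CPM or more that varied less had a median of 16 CG and TATAAA in 0.970%. These groups were not matched for level. Over genes of every class 20.7% varied 2-fold between 1 and 5 CPM, and 0.903% at 100 CPM or more. CG content and TATAAA also differed by level, as given above, and the part of level in this contrast was not tested.

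The Hedgehog pathway was present from receptor to target genes, while its ligands were near the limit of detection. Of 46 genes of the list 35 were detected, a share of 76.1% beside 54.5% of all protein-coding genes, with a median level of 8.88 CPM per kb. Of the 41 members at 1 CPM or more, 3 differed at least 2-fold between the highest and the lowest tumour, beside 4.61% of all protein-coding genes at that level. As these are whole tumours, fewer cells of a type and less RNA per cell cannot be told apart in any level given here.

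None of the 3 ligand genes was detected. Shh, the mitogen of granule neuron progenitors, had 22, 24 and 32 counts in tumours 1, 2 and 3, or 0.138, 0.205 and 0.291 CPM per kb, and 28.4% of its exons lie opposite another gene. Ihh had 15, 7 and 4 counts and Dhh had 1, 4 and 0 counts, with 25.2% of the exons of Dhh opposite another gene. All 3 genes were in the lower part of the ranking, with Shh at rank 13854 of the 21720 protein-coding genes.

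Among receptors and co-receptors Ptch1 (chromosome 13, 63508328 to 63573598, GRCm38), itself a Hedgehog target, was highest, at 75.2, 92.8 and 79.8 CPM per kb and rank 549. The co-receptor Boc was at 27, 35.4 and 27.2 CPM per kb, with tumour 2 highest as for Ptch1. Gas1, a membrane-anchored co-receptor, was at 13.3, 15.1 and 11.5 CPM per kb. Hhip, a decoy that binds Hedgehog ligand, was at 5.44, 5.56 and 6.26 CPM per kb and was highest in tumour 3. Cdon, the co-receptor related to Boc, lay at the detection level, with 0.767, 0.845 and 1.34 CPM per kb. Scube1, Scube2, Scube3 and Lrp2, which act in release or uptake of ligand, and Disp1, needed for its secretion, were below 1 CPM per kb on average.

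The intracellular part of the pathway was detected almost throughout, with 10 of 10 transducers and kinases and 7 of 8 Gli factors and regulators. Smo (chromosome 6, 29735503 to 29761365), the transducer that the SmoM2 allele activates, was at 17, 20.1 and 16.1 CPM per kb. Reads of the SmoM2 allele and of the native gene cannot be told apart in this table. Ptch1 stood above Smo by 2.22 ± 0.08 on the log2 scale of levels, a ratio of 4.65 that was nearly equal in all 3 tumours.

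Gli1, the Gli factor that acts as an activator and is itself a target, was at 23, 34.7 and 19.9 CPM per kb, with tumour 2 above tumours 1 and 3. Gli2, the main primary activator, was at 7.63, 10.5 and 8.58 CPM per kb and Gli3, the main repressor, at 0.796, 1.0 and 1.06 CPM per kb. The order Gli1, Gli2, Gli3 held in each tumour. Gli1 was above Gli2 by 1.51 ± 0.26 and Gli2 above Gli3 by 3.22 ± 0.19 on the log2 scale of levels. Sufu, which holds Gli factors in the cytoplasm, was at 16.6, 19.1 and 15.1 CPM per kb. Prkaca, Csnk1a1, Prkacb and Gsk3b, kinases that phosphorylate Gli factors, had mean levels from 26.2 ± 1.91 to 63 ± 2.98 CPM per kb (SD, n = 3). The orphan receptor Gpr161, a negative regulator in the cilium, was at 4.62, 5.55 and 4.86 CPM per kb, and the ciliary proteins Evc and Evc2, which relay the signal of Smoothened, had 3.31, 4.21 and 3.26 CPM per kb for Evc and 1.86, 2.48 and 1.80 CPM per kb for Evc2. Gpr161, Evc and Evc2 were each highest in tumour 2.

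Genes known as targets or markers of Hedgehog tumours were the highest of the list, with 17 of 18 detected and a median of 27.9 CPM per kb. Sfrp1, a secreted Wnt antagonist that marks Hedgehog medulloblastoma, was at 237, 234 and 222 CPM per kb and rank 136. The sarcomeric protein gene Pdlim3 was at 98.4, 100 and 87.8 CPM per kb. The chemokine receptor gene Cxcr4 was at 94.7, 106 and 83.7 CPM per kb. All 3 of these had their lowest level in tumour 3, within 1.27-fold of the highest. Mycn, the Myc family member induced by Hedgehog signalling in progenitors, was at 68.4, 68.9 and 58.3 CPM per kb. It exceeded Myc by 2.39 ± 0.17 and Mycl by 0.78 ± 0.19 on the log2 scale of levels. Nkx2-2, a homeobox gene, was the most variable target, at 1.70, 1.16 and 0.747 CPM per kb, and Eya1, a phosphatase and cofactor, was the undetected one, at 0.751, 0.866 and 1.24 CPM per kb.

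Within the list tumour 2 tended to be highest. Tumour 2 held the highest value for 24 of the 41 members at 1 CPM or more, where 35.3% of all protein-coding genes were highest in tumour 2. Tumour 1 was highest for 4 members, beside 29.5% of all protein-coding genes, and tumour 3 for 13. Over genes of every class the shares highest in tumours 1, 2 and 3 were 29.7%, 35.4% and 35.0%. The median deviation of the members from the mean of the 3 tumours was -0.08, 0.08 and -0.05 on the log2 scale of CPM in tumours 1, 2 and 3. GC content moved with the tumours too. Among protein-coding genes at 5 CPM or more, the richest of 4 GC classes (54.0% GC or more) was 0.28 higher in tumour 2 than in the other tumours on the log2 scale. In the poorest class (up to 44.5% GC) the same log2 difference was -0.19. After centring on genes of like GC content, a step added after the data were seen, tumour 2 was highest for 21 of 40 members with a GC value. Of 12933 protein-coding genes with a GC value, 4115, 4363 and 4455 were highest in tumours 1, 2 and 3 after this centring. These are the numbers to set beside the centred counts of protein-coding genes here and below. The part of GC content in the order of the tumours was not tested further.

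**Figure D2:**
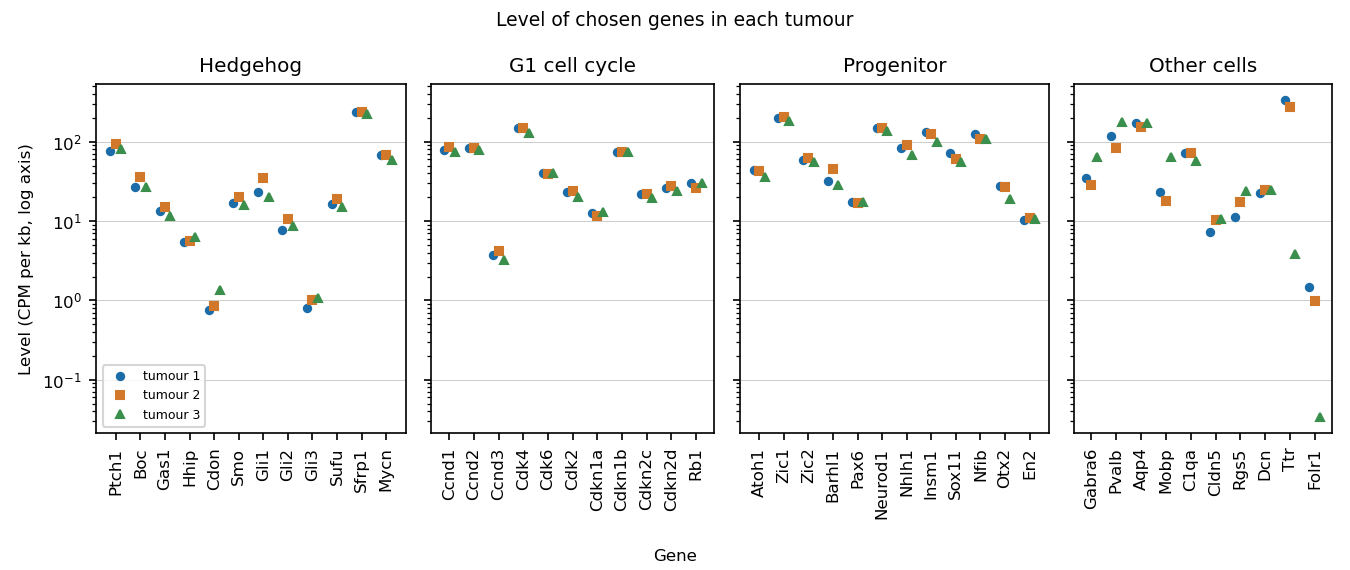
Level of chosen genes in each of the 3 tumours (CPM per kb, log axis), as circles for tumour 1, squares for tumour 2 and triangles for tumour 3. The symbols of most Hedgehog, G1 and progenitor genes nearly overlap, Gli1 is highest in tumour 2, and Ttr and Folr1 are far lower in tumour 3.

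Cell cycle genes were detected without exception and varied little. Cdk6 (chromosome 5, 3341485 to 3531008, GRCm38), the cyclin D dependent kinase that is intact in these mice, was at 39.9, 39.2 and 40.1 CPM per kb from 31203, 22571 and 21692 counts. The 3 values differed by a ratio of 1.02, with a coefficient of variation of 1.18% where counting error alone gives 0.631%. Its close relative Cdk4 was at 149, 148 and 129 CPM per kb, with 17% of its sequence shared, and stood above Cdk6 by 1.83 ± 0.13 on the log2 scale of levels. Cdk2, the partner of E-type cyclins, was at 23.4, 24.2 and 19.9 CPM per kb. Cdk4 was therefore the highest and Cdk2 the lowest of the 3 kinases in every tumour.

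Of the D-type cyclins, which activate Cdk4 and Cdk6, Ccnd2 was at 82.9, 83.3 and 78.7 CPM per kb. Ccnd1 was at 78.6, 84.8 and 74.4 CPM per kb, and 23.4% of its exons lie opposite another gene, from which its reads may not have been told apart. The log2 ratio of Ccnd2 to Ccnd1 was 0.04 ± 0.06 and changed sign between tumours, so their order was within the spread. Ccnd3 was far lower, at 3.71, 4.21 and 3.25 CPM per kb, and Ccnd2 exceeded it by 4.46 ± 0.15 on the log2 scale of levels.

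Inhibitors were led by Cdkn1b (p27), which restrains Cdk2 and rises as progenitors leave the cycle, at 75.2, 75.1 and 74.6 CPM per kb. Its ratio of highest to lowest tumour, 1.01, was among the 10 smallest of the protein-coding genes at 50 CPM or more. Cdkn1b exceeded Cdkn1a (p21), the p53-responsive inhibitor, by 2.60 ± 0.09 on the log2 scale of levels. Cdkn2c and Cdkn2d, inhibitors of Cdk4 and Cdk6, were at 22, 21.6 and 19.7 CPM per kb for Cdkn2c and 25.9, 27.8 and 23.9 CPM per kb for Cdkn2d. Cdkn2a, the tumour suppressor locus of p16 and p19Arf, was just detected, at 1.28, 1.68 and 1.02 CPM per kb, and Cdkn2b was at 1.91, 1.43 and 1.24 CPM per kb. The retinoblastoma gene Rb1, the substrate of the D-type kinases, was at 30.5, 25.9 and 29.9 CPM per kb, above its relatives Rbl1 and Rbl2 in each tumour. All 18 members of the G1 list were detected, and none varied 2-fold.

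All 28 DNA replication genes were detected, with a median of 21.4 CPM per kb, and so were all 26 mitosis genes, with a median of 27.6. Pcna, the sliding clamp of DNA polymerases, was at 183, 157 and 165 CPM per kb. Mcm6, a subunit of the replicative helicase, was at 99.6, 87.2 and 86 CPM per kb, and Rrm1, of ribonucleotide reductase, at 95.4, 80.7 and 91.8 CPM per kb. Top2a, the topoisomerase that untangles chromosomes, was at 95.9, 80.4 and 88.9 CPM per kb and the proliferation marker Mki67 at 79.8, 70.4 and 76.2 CPM per kb. Tumour 1 was highest for Pcna, Mcm6, Rrm1, Top2a and Mki67, and no member of either list varied 2-fold. Tumour 1 held the highest value for 18 of 28 replication genes and 19 of 26 mitosis genes, beside 29.5% of all protein-coding genes. The median deviation was small, 0.08 for replication and 0.10 for mitosis in tumour 1 on the log2 scale of CPM. After GC centring the counts were 18 and 20. Short genes also ran high in tumour 1, by 0.11 on the log2 scale in the shortest of 4 length classes, and the part of length in these counts was not tested.

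The E2F factors, which transcribe the replication genes, were all detected, 10 of 10. E2f1 was at 25.1, 28.8 and 19.1 CPM per kb with tumour 3 lowest, and Tfdp1, the partner of the E2F proteins, was at 97.3, 95.8 and 99.3 CPM per kb. In the Myc network 11 of 11 genes were detected. Myc was at 13.2, 14.8 and 9.88 CPM per kb. Of the genes of its antagonists, Mxi1 was highest, at 28.6, 26.5 and 27.8 CPM per kb, above Myc and below Mycn in each tumour. Mxd1, Mxd3, Mxd4 and Mnt had mean levels from 2.87 ± 0.111 to 9.0 ± 0.742 CPM per kb (SD, n = 3), below Myc in each tumour.

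Transcription factors of granule neuron progenitors were detected in the tumours, and late markers of granule neurons were detected beside them. Of 33 progenitor factors 28 were detected, with a median of 18.9 CPM per kb. Zic1 was highest, at 199.6, 207 and 181 CPM per kb, and exceeded Zic2 by 1.73 ± 0.03 on the log2 scale of levels. Neurod1, which drives differentiation of granule neurons, was at 149, 147 and 135 CPM per kb and Atoh1 at 44.2, 42.8 and 35.7 CPM per kb. The log2 ratio of Neurod1 to Atoh1 was 1.82 ± 0.09. Id2, an inhibitor of basic helix-loop-helix factors, was at 141, 140.0 and 147 CPM per kb, and Insm1, a zinc finger factor of dividing neuronal progenitors, at 133, 126 and 98.8 CPM per kb. Atoh1, Zic1, Neurod1 and Insm1 were lowest in tumour 3. Barhl1, a homeobox factor downstream of Atoh1, was at 31.7, 45.3 and 28.3 CPM per kb and highest in tumour 2. Pax6, a factor of the rhombic lip, was even, at 17.5, 16.7 and 17.3 CPM per kb. The factors not detected included Eya1, Eya2, Meis2 and Lhx9, and Meis2 had 0.113, 0.188 and 0.232 CPM per kb.

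Of 35 genes of granule neuron differentiation 34 were detected, with a median of 18.5 CPM per kb. Tubb3, the beta-tubulin of neurons, was at 192, 208 and 166 CPM per kb, and Gap43, a growth cone protein, at 177, 156 and 169 CPM per kb. Markers of more mature granule neurons were highest in tumour 3. Gabra6 was at 34.9, 28.5 and 64.6 CPM per kb, Gabrb2, another GABA receptor subunit, at 3.35, 3.43 and 8.03 CPM per kb, and Vsnl1, a neuronal calcium sensor, at 24, 18.9 and 42.8 CPM per kb. The ratios of highest to lowest tumour for these were 2.27, 2.40 and 2.26. Tumour 3 was highest for 23 of 35 members, also after GC centring, beside 35.2% of all protein-coding genes before centring. Of the 35 members 5 varied 2-fold, beside 4.61% of all protein-coding genes at 1 CPM or more. The median deviation was -0.17, -0.10 and 0.18 on the log2 scale of CPM in tumours 1, 2 and 3. The log2 ratio of Gabra6 to Atoh1 was -0.02 ± 0.77, with a change of sign between tumours, so the order of these genes lay within the spread.

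Of the human panel that sorts medulloblastoma into subgroups, the mouse counterparts of the SHH genes stood highest. Of the 5 SHH genes (Sfrp1, Pdlim3, Atoh1, Hhip and Eya1) 4 were detected, with a median of 40.9 CPM per kb. The WNT genes had 3 of 5 detected and a median of 2.26 CPM per kb, the Group 3 genes 2 of 5 and 0.367, and the Group 4 genes 3 of 6 and 0.986. A single gene outside the SHH set was high, the Group 3 gene Mab21l2, at 48.8, 42.1 and 32.5 CPM per kb, and 36% of its exons lie opposite another gene. Kcna1, a potassium channel of the Group 4 set, was at 1.76, 2.57 and 5.62 CPM per kb and highest in tumour 3. The panel has not been calibrated on this scale, so no subgroup was assigned.

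Of the factors that pattern the brain from front to back, those detected were factors of the midbrain and anterior hindbrain. None of 10 forebrain factors was detected. Emx1, Dlx2, Dlx5 and Nkx2-1 had no count in any tumour, which allows up to 0.0776 CPM in the library with the highest limit. Of 16 midbrain and anterior hindbrain factors 4 were detected, a share of 25% and below the 54.5% of all protein-coding genes. Otx2, a homeobox factor of the midbrain that is also expressed in the posterior cerebellum, was at 27.9, 26.6 and 19 CPM per kb. En2, which patterns the cerebellum, was at 10.3, 11 and 10.6 CPM per kb, and Otx1 and Irx2 were at 3.11, 3.09 and 3.65 CPM per kb for Otx1 and 0.953, 1.34 and 0.860 CPM per kb for Irx2. Otx2 was above En2 in each tumour, by 1.19 ± 0.31 on the log2 scale of levels. None of 18 Hox genes, which mark the posterior hindbrain and spinal cord, was detected, and 12 of them had no count at all.

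Genes of sterol metabolism, whose oxysterol products can activate Smoothened, were widely detected. Hsd11b2, which inactivates glucocorticoids and has been linked to oxysterol synthesis in Hedgehog medulloblastoma, was at 48.8, 56.9 and 40.7 CPM per kb. Hsd11b1, which acts in the opposite direction, was at 3.37, 3.21 and 5.18 CPM per kb, and Hsd11b2 exceeded it by 3.66 ± 0.61 on the log2 scale of levels, a fold between 7.85 and 17.7 in single tumours. Cyp7b1, an oxysterol hydroxylase, was at 7.78, 6.60 and 6.91 CPM per kb. Cyp11a1, the side-chain cleavage enzyme of cholesterol, was at 2.62, 3.61 and 1.44 CPM per kb and had the largest ratio of the list, 2.50. Ch25h and Hsd3b7 were not detected. All 24 cholesterol synthesis genes were detected, with a median of 11.9 CPM per kb and none varying 2-fold. Hmgcs1, which makes the precursor of mevalonate, led them at 61.2, 55.2 and 66.5 CPM per kb. Apoe, a lipid carrier protein that glia secrete, was at 479, 523 and 435 CPM per kb and rank 50.

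Other pathways were described in the same way, beside a share of 54.5% of all protein-coding genes detected. All 21 genes of the unfolded protein response were detected. Of these, 16 were highest in tumour 1, or 14 after GC centring, beside 29.5% of all protein-coding genes before centring. The median deviation of the list in tumour 1 was 0.15 on the log2 scale of CPM. Its highest member was Calr, a calcium-binding chaperone of the endoplasmic reticulum, at 185, 159 and 147 CPM per kb, and Hspa5, the chaperone BiP, was at 125, 93.4 and 87 CPM per kb. All 16 p53 pathway genes were detected with a median of 12 CPM per kb. Trp53 itself was at 29.4, 31.1 and 23.6 CPM per kb, and Bax, which promotes cell death, at 54.9, 61.3 and 48.3 CPM per kb. All 30 chromatin regulators were detected, and 20 were highest in tumour 2, 19 after GC centring, beside 35.3% of all protein-coding genes before centring. They were led by the RNA helicase gene Ddx3x at 188, 174 and 221 CPM per kb.

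In the Notch list 11 of 18 genes were detected, with a median of 1.92 CPM per kb. Hey1, a target repressor, was highest at 82.5, 76.7 and 58.7 CPM per kb, while the receptor Notch1 was at 0.479, 0.999 and 0.684 CPM per kb, highest in tumour 2. Of 12 genes of insulin-like growth factor signalling all 12 were detected. Igf2, a growth factor needed for Hedgehog tumours in mice, was at 23.8, 26.7 and 25.3 CPM per kb, with 62.1% of its 50-base sequences shared with another annotated gene. Its receptor gene Igf1r was at 5.25, 6.54 and 5.21 CPM per kb. In the Wnt list 16 of 21 genes were detected. Ctnnb1, which encodes beta-catenin, was at 183, 177 and 187 CPM per kb, and Axin2, a feedback target, was at 3.13, 4.98 and 3.69 CPM per kb. Lef1, which marks WNT medulloblastoma, was at 0.144, 0.183 and 0.168 CPM per kb, and Wnt1 had no count.

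Of 21 glycolysis genes 20 were detected, with a median of 35.1 CPM per kb. The pyruvate kinase gene Pkm was at 201, 218 and 191 CPM per kb, and Hk2, the hexokinase of progenitors, was at 34.2, 37.6 and 33.3 CPM per kb, above Hk1 at 5.52, 6.76 and 7.33 CPM per kb. Aldoc, an aldolase of astrocytes and Purkinje cells, was highest in tumour 3, at 106, 93.5 and 141 CPM per kb.

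The whole tumours also held RNA of other cerebellar cells, and the lists with the largest share of genes varying 2-fold were among their markers. For the counts that follow, 29.5%, 35.3% and 35.2% of all protein-coding genes at 1 CPM or more were highest in tumours 1, 2 and 3. The share of them varying 2-fold was 4.61%, and 54.5% of all protein-coding genes were detected. All 12 markers of astrocytes and Bergmann glia were detected, with a median of 98.2 CPM per kb and none varying 2-fold. Fabp7, a fatty acid binding protein of radial and Bergmann glia, was at 425, 365 and 363 CPM per kb. The water channel gene Aqp4 was at 169.8, 154 and 170.3 CPM per kb and Gfap, an intermediate filament gene, at 119, 111 and 105 CPM per kb. The summed level of the list was 1399, 1285 and 1469 CPM per kb.

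Of oligodendrocyte markers all 12 were detected, and the myelin genes were highest in tumour 3. Mobp, a myelin protein gene, was at 23, 17.9 and 64.7 CPM per kb. Olig1 and Olig2, factors of the whole lineage, were highest in tumour 2, at 25.9, 31.2 and 23.6 CPM per kb for Olig1 and 18.3, 22.2 and 18.8 CPM per kb for Olig2. Tumour 3 was highest for 8 of 12 members and 5 of 12 varied 2-fold, with summed levels of 381, 316 and 627 CPM per kb.

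Markers of Purkinje cells, the inhibitory output neurons of the cerebellum, were as a list also highest in tumour 3. The median deviation of the oligodendrocyte list was -0.11, -0.36 and 0.30 on the log2 scale of CPM in tumours 1, 2 and 3. That of the Purkinje list was -0.39, -0.15 and 0.49, so the lowest tumour differed. Of 8 markers 7 were detected, 4 of 7 varied 2-fold, and all 7 at 1 CPM or more were highest in tumour 3, before and after GC centring. Pvalb was at 119, 82.2 and 176 CPM per kb and Calb1, another calcium buffer, at 32.1, 28.7 and 59 CPM per kb. The summed level of the Purkinje list was 227, 196.0 and 385 CPM per kb. The summed levels of myelin and Purkinje markers thus moved with the mature granule neuron genes named above, all highest in tumour 3, and their part in that difference was not tested. Of 5 GABAergic interneuron markers at 1 CPM or more, 3 were highest in tumour 3 and 2 in tumour 2, with 5 highest in tumour 3 after GC centring. Gad2 of this list, which makes GABA, was at 2.77, 2.88 and 6.10 CPM per kb. Of 4 unipolar brush cell markers at 1 CPM or more, 3 were highest in tumour 3 and 1 in tumour 1. Calb2 of this list was at 27.7, 25.5 and 43.6 CPM per kb.

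Blood vessel markers were lowest in tumour 1. Of 9 endothelial markers 8 were detected, and all 9 were highest in tumour 3, or 8 of 9 after GC centring. The tight junction gene Cldn5 was at 7.28, 10.2 and 10.6 CPM per kb. The endothelial list summed to 20.7, 28.4 and 33.8 CPM per kb. Rgs5, a pericyte marker, was at 11.2, 17.2 and 24 CPM per kb, and none of the 7 pericyte and smooth muscle markers at 1 CPM or more was highest in tumour 1, where the median deviation was -0.58 on the log2 scale of CPM. Markers of meningeal fibroblasts were more even, with Dcn at 22.3, 24.9 and 24.7 CPM per kb and none of 8 varying 2-fold.

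Immune cells were represented by microglia and macrophages. All 12 of their markers were detected, with a median of 16.1 CPM per kb and none varying 2-fold. C1qb, a complement component, was at 116, 107 and 92 CPM per kb and Cx3cr1, a chemokine receptor of microglia, at 19.7, 17.8 and 20.8 CPM per kb. Of 8 lymphocyte markers a single one was detected, Cd4, at 3.62, 3.71 and 2.76 CPM per kb, while Cd3e had 9, 0 and 3 counts and Cd8a 0, 1 and 0. Globin genes of red cells were lowest in tumour 2. Hbb-bs was at 81, 50.7 and 72 CPM per kb, with 53.2% of its sequence shared with other globin genes.

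Choroid plexus genes gave the largest difference between the tumours. Ttr, the thyroxine carrier secreted by the choroid plexus, was at 332, 271 and 3.86 CPM per kb, or 22637, 13579 and 182 counts, a ratio of 85.9. Folr1, a folate transporter of the same epithelium, had 189, 93 and 3 counts, or 1.47, 0.984 and 0.0338 CPM per kb. Kl, the anti-ageing hormone Klotho, was at 1.69, 1.79 and 0.666 CPM per kb and the water channel Aqp1 at 1.11, 1.16 and 0.305 CPM per kb. Ttr, Folr1, Kl and Aqp1 were each lowest in tumour 3. The ependymal genes Foxj1 and Dynlrb2 varied less, at 1.66, 2.15 and 1.39 CPM per kb for Foxj1 and 1.98, 1.23 and 1.93 CPM per kb for Dynlrb2. The summed level of the list was 342, 280.4 and 9.73 CPM per kb, nearly all of it Ttr in tumours 1 and 2.

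**Figure D3:**
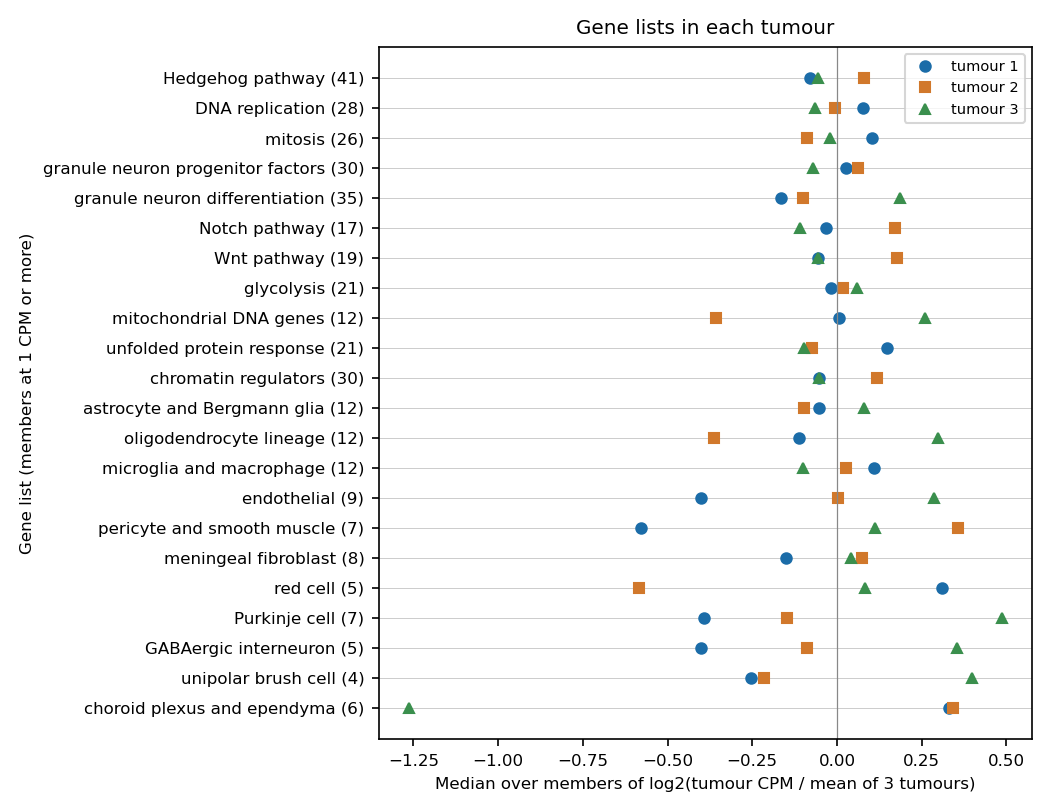
Median over the members of each gene list of the log2 ratio of a tumour's CPM to the mean of the 3 tumours, with the number of members at 1 CPM or more in brackets and 1 symbol per tumour. Hedgehog, replication and mitosis lists lie within 0.11 of 0, while Purkinje and oligodendrocyte markers lie highest in tumour 3, vessel markers lowest in tumour 1 and choroid plexus markers lowest in tumour 3 (-1.26).

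Across all genes the spread between the tumours was small and fell with the level. The common biological coefficient of variation estimated by edgeR was 0.175, over 16476 genes. Of 14614 genes at 1 CPM or more, 877 (6.00%) had a highest tumour at least 2 times the lowest, and among 13263 protein-coding genes 611 (4.61%) did. The median ratio of highest to lowest tumour was 1.55 between 1 and 5 CPM, 1.33 between 5 and 20, 1.21 between 20 and 100, and 1.18 at 100 CPM or more. The share varying 2-fold in these classes was 20.7%, 5.24%, 1.34% and 0.903%. The part of counting error in these ratios and shares was not tested.

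**Figure D4:**
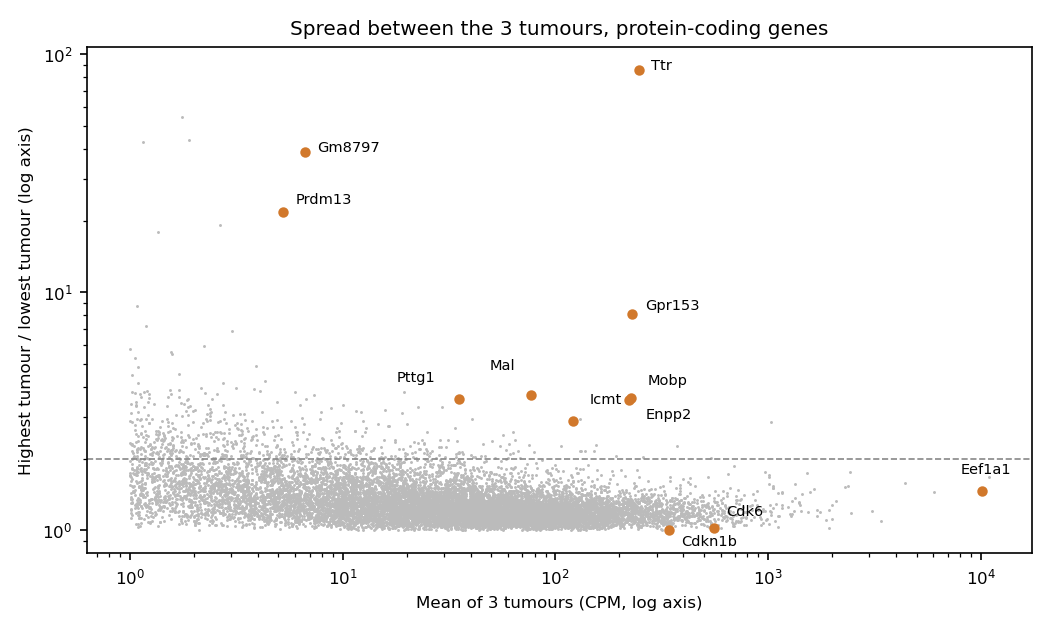
Ratio of the highest to the lowest tumour against mean CPM for protein-coding genes at 1 CPM or more (both axes log), with the ratio of 2 as a dashed line and chosen genes marked. Most genes at high CPM lie near 1, Cdk6 and Cdkn1b among them, and Ttr (85.9), Gpr153 (8.11) and Prdm13 (21.8) stand far above genes of like CPM.

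The 15 most variable protein-coding genes at 5 CPM or more were led by Ttr. Gm8797 came next with 27, 774 and 25 counts, high in tumour 2, and 84.1% of its sequence is shared with another gene. Prdm13, a factor of GABAergic progenitors of the cerebellum, had 414, 15 and 307 counts, or 1.73, 0.0852 and 1.86 CPM per kb, and was nearly absent in tumour 2. Gpr153, an orphan receptor gene, was at 11.9, 96.1 and 68.7 CPM per kb, low in tumour 1. Pttg1, which encodes securin, the inhibitor of sister chromatid separation, was at 24.9, 6.95 and 21.1 CPM per kb and low in tumour 2, although no listed mitosis gene varied 2-fold. Mal and Ermn, of myelin, were highest in tumour 3, with Mal at 22, 13 and 48.2 CPM per kb. Enpp2, which makes lysophosphatidic acid and is expressed by choroid plexus and oligodendrocytes, was at 93.4, 72.2 and 26.6 CPM per kb and lowest in tumour 3. Lcn2, an acute-phase protein, was at 6.17, 12.8 and 3.35 CPM per kb. The others were Mobp, Cfap74, Iqsec3, Hspg2, Rec8 and Scn4b.

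At the other end, the 10 genes with the smallest ratio at 50 CPM or more had ratios from 1.005 to 1.009. They were Fam114a2, Vopp1, Tub, Zbtb1, Cul4a, Slc39a9, Rpl18, Cdkn1b, Tubgcp2 and Tmem178b. Fam114a2 was at 24.1, 24.1 and 24 CPM per kb, with a coefficient of variation of 0.263% where counting error alone gives 1.73%. Its 3 values lay closer together than counting error gives on average, in a gene picked for having the smallest ratio. No low spread between tumours can be read from it.

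Genes in which a single tumour stood at least 2-fold away from both others were counted among 11301 protein-coding genes at 5 CPM or more. Tumour 1 was above both in 0 genes and below both in 12, tumour 2 above in 17 and below in 2, and tumour 3 above in 23 and below in 7. Those above in tumour 3 included Mobp, Mal, Gabrb2 and Gad2.

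Gpr153 (chromosome 4, 152274232 to 152285337, GRCm38) was low in tumour 1, where most of its neighbours were lowest too, by less. Of the 5 genes at 1 CPM or more on each side, named after their values were seen, 8 of 10 were lowest in tumour 1. The share of all genes lowest in tumour 1 was not counted, so no excess is claimed. Of these neighbours 2 of 10 varied 2-fold, beside 4.61% of all protein-coding genes at 1 CPM or more. Hes3, a helix-loop-helix repressor gene less than 1000 bases downstream on the other strand, was at 0.557, 1.56 and 1.81 CPM per kb from 57, 117 and 128 counts. Icmt, which methylates prenylated proteins, was at 10.7, 31 and 26.9 CPM per kb. These were the 2 neighbours past 2-fold. Hes3 had a mean of 2.39 CPM and Icmt a mean of 121 CPM. Over genes of every class 20.7% varied 2-fold between 1 and 5 CPM, and 0.903% at 100 CPM or more. Farther on the same side Chd5 was at 0.336, 0.556 and 0.664 CPM per kb and Kcnab2 at 2.79, 5.46 and 5.29 CPM per kb, both just under 2-fold (ratio of highest to lowest 1.98 and 1.95). Rpl22, which lies between Icmt and Chd5, was lowest in tumour 2, at 196, 167 and 221 CPM per kb. On the other side Plekhg5 was at 0.333, 0.560 and 0.597 CPM per kb (ratio 1.79) and Acot7 at 30.6, 40.7 and 34.3 CPM per kb (ratio 1.33). Klhl21 and Nol9 were in tumour 1 close to their level in tumour 3, and Zbtb48 was lowest in tumour 3.

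Of the other genes given with values, Ccnd1, Ctnnb1, Dhh, Gas1, Hmgcs1, Lef1, Mab21l2, Pcna, Pkm, Rb1, Rny1, Shh, Tfdp1 and mt-Co1 also shared over 10% of their 50-base sequences with another annotated gene, so part of their reads may belong elsewhere. For the ribosomal RNA copy Rn18s-rs5 no such share was available.

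No whole chromosome of any tumour stood apart from that of the other tumours on this measure. For each tumour and chromosome the median log2 CPM of the genes at 5 CPM or more was set against the mean of the other tumours. The 60 medians, for 20 chromosomes and 3 tumours, lay between -0.15 and 0.09, where 3 copies against 2 in every cell would correspond to 0.58 if transcripts follow copies. The lowest median, -0.15, was that of the X chromosome in tumour 2. A copy number change confined to some of the cells, or to part of a chromosome, would move these medians less. As each median sets a tumour against the others, a change shared by all 3 tumours would not be seen.

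**Figure D5:**
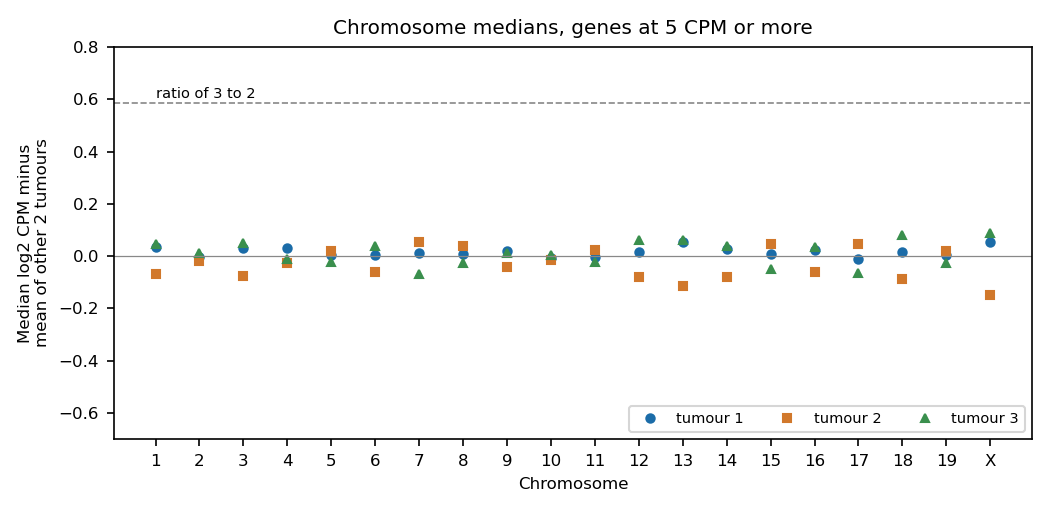
Median over genes at 5 CPM or more of log2 CPM in a tumour minus the mean of the other tumours, for each chromosome, with 1 symbol per tumour and a dashed line at the log2 ratio of 3 to 2 (0.58). All 60 medians lie between -0.15 and 0.09.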

How the data were processed

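RNA from 3 Cdk6+/+ tumours, grouped by the genotype label, was analysed, and the count columns of the other 6 tumours of the series were not used here. The members and gene lists were chosen with earlier results of these data known. The authors deposited whole-number counts per gene with the gene's position and exon length, per the file headers. Per the labels' protocols, total RNA was made into libraries with a TruSeq kit from Illumina. Tools named without versions in the submitters' processing notes are FastQC, Trimmomatic, HISAT2 and DESeq2, with build GRCm38.p6. The counting tool and how it treated strand and multiple alignments were not given in the sources used here. A second table, the authors' DESeq2 comparison with log2 fold changes, p-values and a score as the authors deposited them, was not used.

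The table had 47593 genes. Of these, 27 names had become dates in a spreadsheet and 25 were restored by position. Gene classes came from GENCODE M21 (95.2% of names matched, 85.6% of these with the same start and end), and 8 genes were listed on several chromosomes. Counts were scaled by TMM in edgeR 4.0.16 (R 4.3.3). CPM are counts per 1000000 counts of the scaled library, and levels are CPM divided by the length in kb, so a length that the tumours' transcripts do not have would shift a gene's level. Detection was set at a mean of 1 CPM per kb, and spread as the ratio of highest to lowest tumour at a mean of 1 CPM or more. A gene's shared sequence, mentioned where it is over 10%, counts those of its 50-base sequences that another GENCODE M21 gene also holds. Promoters were taken from RefSeq (GRCm38.p6), with 449 of 629 listed symbols matched. GC values were available for 11010 protein-coding genes at 5 CPM or more (97.5%). The estimate of spread was checked on simulated data, with biological coefficients of variation set at 0.1, 0.2 and 0.3. Of the genes given no change there, 0.0764%, 5.40% and 25.5% passed the 2-fold rule, in the same order. Alternatives were other scalings, including DESeq2 1.42.0 size factors, other thresholds, TPM and leaving out each tumour. The remaining steps ran in Python 3.11.15 (pandas 2.3.3, numpy 2.4.6, scipy 1.17.1).

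In gene lists of over 12 members those named are the 4 highest, undetected genes that define a cell type or region and the 3 with the largest ratio, along with any gene of a shorter list. Outside the lists they are the 20 highest protein-coding and 5 highest noncoding genes, the 15 with the largest and the 10 with the smallest ratio, and Cdk6. Other genes were chosen after their values were seen.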

Additional observations from a re-analysis of the deposited data

How the results depend on the processing

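The numbers of genes and of protein-coding genes detected stayed within 1.5 times their values under all alternatives tried, from 11400 genes with a threshold of 2 CPM per kb to 16288 in transcripts per 1000000 (TPM). The number of genes varying at least 2-fold depended on the filter, with 162 at a mean of at least 10 CPM and 4997 with a count in every tumour as the sole filter. It was 316 to 542 with one tumour left out, where fewer tumours give fewer pairs. It was 957 with unscaled totals, 872 with DESeq2 size factors and 732 after GC centring, the last chosen after seeing the data. The common biological coefficient of variation was 0.20 without a filter, 0.143 at a mean of at least 10 CPM and 0.161 to 0.198 with one tumour left out. The largest absolute chromosome median stayed between 0.147 and 0.161. All 17 within-tumour ratios moved by less than 1 SD in the 51 recalculations without one tumour, as the mean of any 3 values must. This count therefore does not show stability. The log2 ratio of Gabra6 to Atoh1 was 0.13, 0.26 and -0.46 without tumours 1, 2 and 3. Of 88 list medians and named levels, 176 of 176 values under other scalings moved by less than the spread between tumours. With one tumour left out 225 of 264 did, a count with much the same limit. TPM were a median of 3.19 times higher by construction. No paired analysis was possible because the 3 tumours form 1 group in which each replicate number occurs once. Depth limits genes under about 1 CPM, where counting error adds to the ratio.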

Other observations

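Noncoding RNAs had a spread of their own. The 5 highest noncoding genes were mt-Rnr1 and mt-Rnr2, the ribosomal RNAs of mitochondria, the mitochondrial transfer RNA gene mt-Tp, the ribosomal RNA copy Rn18s-rs5 and the small cytoplasmic RNA gene Rny1. All 5 were highest in tumour 3 and lowest in tumour 2. Rn18s-rs5 was at 480.0, 396 and 895 CPM per kb and Rny1 at 372, 209.9 and 780.4 CPM per kb in tumours 1, 2 and 3. Among long noncoding RNAs Xist, which coats the inactive X chromosome, was at 109, 116 and 88.2 CPM per kb. Miat, a nuclear RNA of neural cells, was at 72, 113 and 52.3 CPM per kb, with 24.3% of its exons opposite another gene, and Malat1, a nuclear speckle RNA, at 31.7, 55.2 and 32.7 CPM per kb. Xist, Miat and Malat1 were each highest in tumour 2, as were 9 of the 17 listed long noncoding RNAs at 1 CPM or more, or 12 after GC centring. Over genes of every class 35.4% were highest in tumour 2. Gas5, a host of small nucleolar RNAs, was nearly even, at 71.3, 66 and 65.3 CPM per kb.

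Of 18 imprinted genes, which are expressed from 1 parental allele, 16 were detected. Nnat, a membrane protein of developing neurons, was at 408, 337 and 347 CPM per kb and rank 75, and Zim1 varied most, at 1.10, 1.77 and 0.543 CPM per kb. All 13 tubulin genes were detected, and Tubb5, the beta-tubulin of dividing and young neuronal cells, was at 637, 603 and 570.3 CPM per kb. Of 18 immediate early genes 12 were detected, with a median of 1.48 CPM per kb. Jun, an AP-1 subunit, was at 18.5, 21 and 15.7 CPM per kb and Fos, its partner, at 1.71, 1.48 and 1.10 CPM per kb. Of 20 genes of the interferon response and MHC class I 14 were detected, led by B2m, the invariant class I chain, at 262, 210.2 and 232 CPM per kb.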
